A study of Mus musculus with 15 samples.

Results

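Mid1 encodes a microtubule-associated ubiquitin ligase and was described here in mouse chromatin after chronic social defeat, in the nucleus accumbens, which serves reward and motivation in the forebrain. Its members were chosen by gene name and position: the rows of 6 deposited histone H3 tables that name Mid1, and the ACF1 segments that overlap its bounds. Of 88334 H3 rows over the 6 tables, 62 named Mid1, which was 1 of 7814 genes named there. Of these rows, 51 gave a change of occupancy and 11 a nucleosome shift. Each of the 3 ACF1 lists held 1 segment at the gene, out of 749 in controls, 1133 in susceptible mice and 716 in resilient mice.

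All mice were of the C57BL/6 strain. Control mice, by the usual design of this paradigm, are not defeated. Susceptible and resilient mice had met a new CD1 aggressor on each of 10 days and were parted by a social interaction test, with susceptible mice avoiding the target and resilient mice not. Tissue punches of 10 mice were pooled for a replicate and were taken 48 hours after the last defeat; the age and sex of the mice were not used here. Each group had 1 sample per target, while a file described a single group or a single pair of groups. There was thus no spread between replicates, and no p-value is given. Mid1 was also selected on the measured directions of its H3 positions and on its ACF1 segments, so all values below are descriptions.

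MID1 is a RING-type ubiquitin ligase of the TRIM protein family that binds along microtubules. Through the adaptor IGBP1, also named alpha4, it marks the catalytic subunit of protein phosphatase 2A for degradation, and thereby acts on mTOR signalling. Its human counterpart is mutated in X-linked Opitz G/BBB syndrome, a disorder of the body's midline. In laboratory mice the gene straddles the pseudoautosomal boundary: its first part is specific to chromosome X, while its 3′ part lies in the stretch that X and Y share. RefSeq also lists a Mid1 pseudogene, Mid1-ps1, on chromosome Y. How reads that match several copies were assigned is not given in the sources used here, so positions in the 3′ part may not be specific to the X copy; their part in the results was not tested. ACF1, the protein of Baz1a, partners the ATPase SNF2H in the ACF complex, a remodeller that slides and spaces nucleosomes. H3 after digestion with micrococcal nuclease reports where nucleosomes sit.

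On mm9, the tables placed Mid1 on the plus strand of chromosome X from 166317553 to 166428729, a length of 111.2 kb, under 1 transcript accession. That accession was not among the transcripts in the RefSeq table for GRCm38, where the gene is 305600 bp long and has 3 listed starts. The bounds used here therefore need not cover every start of the gene. All 62 rows carried the gene body class and 0 a promoter class. Whether a position is exonic or intronic was not analysed here.

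The Mid1 positions lay at the 3′ end of the gene. The first row in any of the 6 tables was at 166408352, which was 90.8 kb from the gene start. No row of any table lay in the 81.7% of the gene before it. The last row named Mid1 was at 166429472, 743 bp past the annotated end, so that all 62 rows lay in the last 18.3% of the gene or just beyond. They stood at 54 distinct positions. Of the 500 kb before the gene start, the only row was 1 unnamed Up position in resilient against control, at 165864552.

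**Figure D1:**
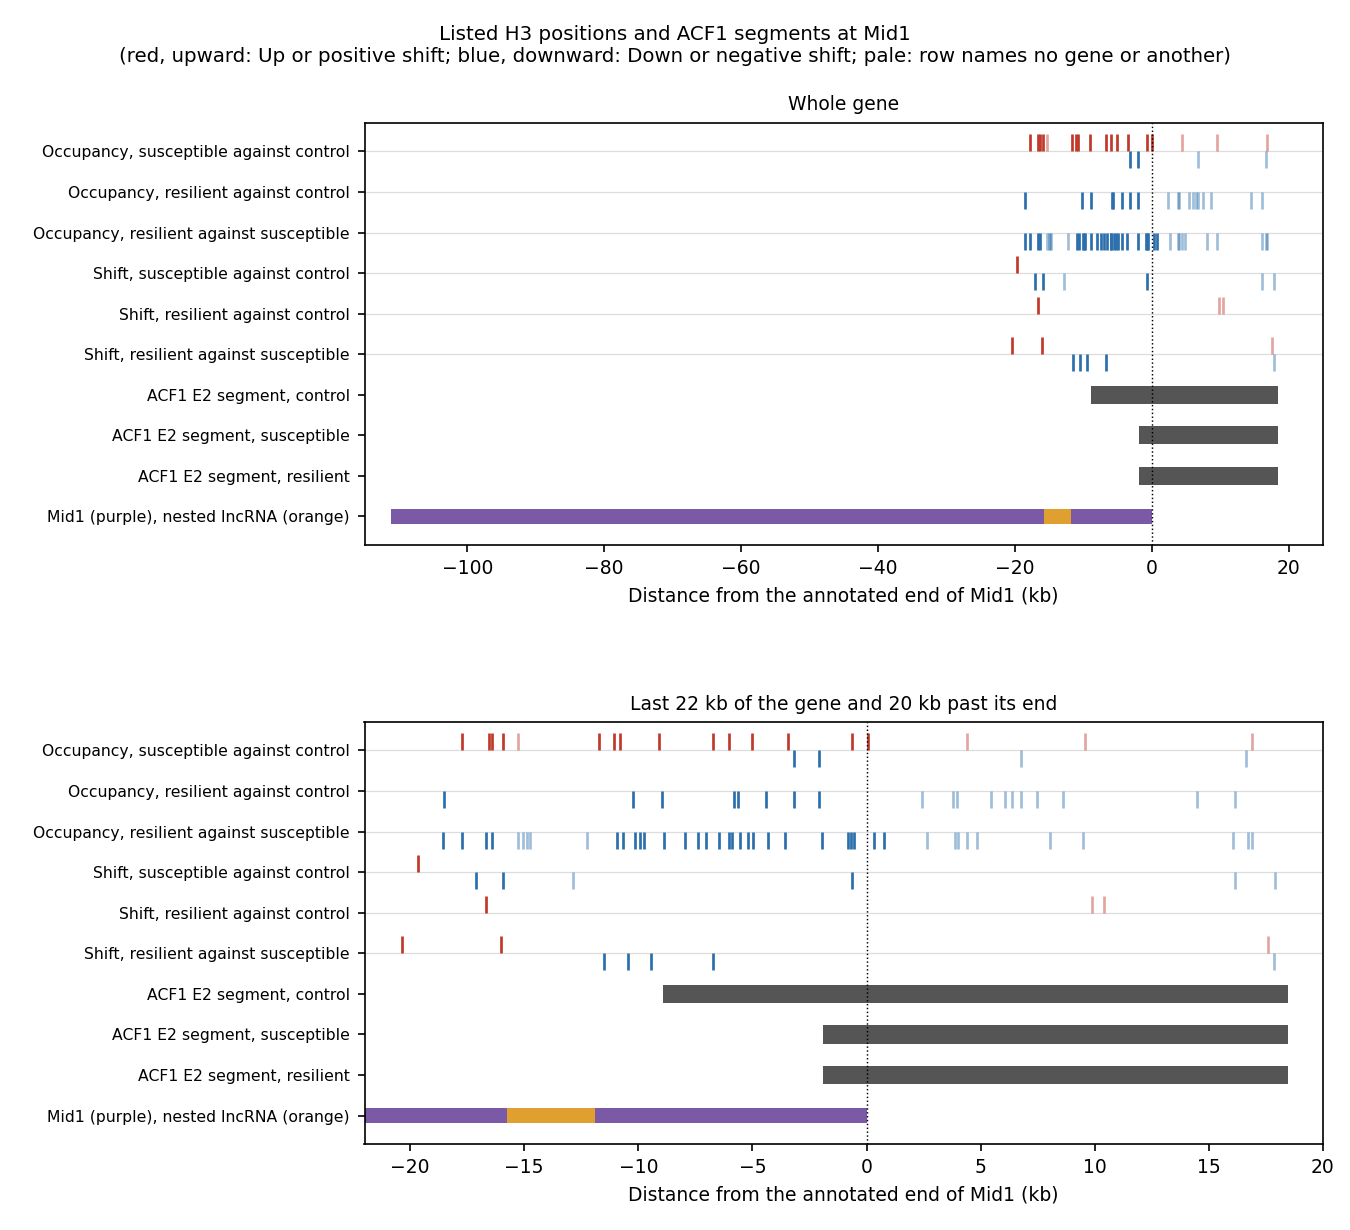
Positions of the H3 rows and ACF1 segments along Mid1, as distance in kb from its annotated end, over the whole gene (top) and near its 3′ end (bottom). Upward red ticks are Up positions or positive shifts, downward blue ticks Down positions or negative shifts, pale ticks rows that name another gene or none, and grey bars segments; no tick stands in the first 90.8 kb of the gene, and resilient against susceptible shows downward occupancy ticks only.

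Susceptible against control set mice that avoided others after defeat against controls. Mid1 held 16 occupancy positions, 14 Up and 2 Down (87.5% Up), from 166411002 to 166428772, a span of 17.8 kb. Here Up is read as more H3 in the group named first, which the files do not state. Of all positions of the comparison, 14.8% were Up, and 40.4% without chromosome 1, which held most of the Down positions. The 2 Down positions, at 166425562 and 166426662, were 3.2 kb and 2.1 kb before the gene end. Up positions stood on both sides of them. The nearest before was at 166425282 and the nearest after at 166428092. On chromosome X outside the stretch described below, 35 of 61 positions were Up (57.4%). The Up share at Mid1 was thus above that of its own chromosome as well as that of the table.

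Resilient against control set mice that did not avoid others against the same controls. Mid1 held 8 positions and all 8 were Down, where 38.3% of the whole table was Up (38.3% also without chromosome 1). They ran from 166410222 to 166426662, over 16.4 kb. Of them, 5 lay between 166422912 and 166426662, and 166410222 stood alone, 8270 bp before the next. On chromosome X outside the stretch, 25 of 55 positions were Up (45.5%).

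Resilient against susceptible compared the outcomes of the same stress. Mid1 held 27 positions and all 27 were Down, where 48.9% of the whole table was Up (48.8% without chromosome 1). No other of the 3552 genes with a position in this table had as many. They ran from 166410182 to 166429472, over 19.3 kb, and 17 of them formed 1 run from 166417772 to 166425172 with no gap above 1000 bp. With gaps of at most 500 bp, the longest run held 6 positions, from 166422252 to 166423752, and the clusters numbered 14 in place of 5. On chromosome X outside the stretch, 29 of 59 positions were Up (49.2%). Of 23 genes with at least 8 positions in this table, 2 had Down positions only, against 3 of 28 in resilient against control and 310 of 440 in susceptible against control.

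**Figure D2:**
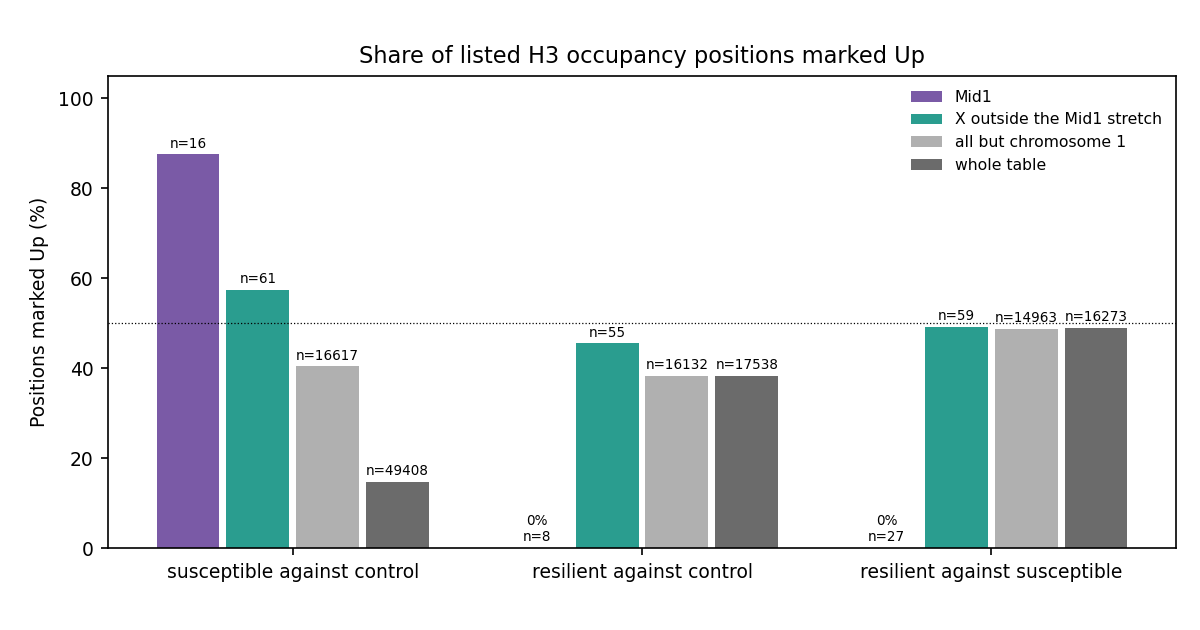
Percentage of listed H3 occupancy positions marked Up at Mid1, on chromosome X outside the Mid1 stretch, in the table without chromosome 1 and in the whole table, for each comparison, with the number of positions above each bar and a dotted line at equal shares. Mid1 stood at 87.5% Up in susceptible against control and at 0% in both tables that name resilient mice first.

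Read in these terms, 14 of the 16 positions listed for susceptible against control carried more H3 in susceptible mice, and every position listed for resilient mice carried less H3 in them than in the group they were set against. Each table shares a group with each of the others, so these directions are not independent of one another. The same base was listed in more than 1 table at 5 positions. At 166411002, 166412322 and 166422702 susceptible mice stood higher than controls and resilient mice lower than susceptible ones, as at a site highest in susceptible mice, or lowest in them if Up is read the other way. At 166425562 and 166426662 both stressed groups stood lower than controls, as at a site highest in controls, or lowest in them under the other reading. These last 2 are the Down positions of susceptible against control described above. Resilient against control and resilient against susceptible shared 0 exact positions. Within 100 bp they shared 4, all Down in both.

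Rows that do not name Mid1 lay among its positions and past its 3′ end. G530011O06Rik, a long noncoding RNA gene on the minus strand, lies within Mid1 from 166412974 to 166416849, and the tables gave each row to 1 gene only. It held 5 Down positions of 5 in resilient against susceptible and 1 Up position in susceptible against control, at 166413442, which was also 1 of the 5. The H3 data carry no strand, so these cannot be parted from Mid1. Past the Mid1 rows and within the ACF1 segment described below, unnamed positions reached 166445602, at 16.9 kb beyond the gene end. There were 11 of 11 Down in resilient against control, 10 of 10 Down in resilient against susceptible, and 3 Up and 2 Down in susceptible against control. Beyond that segment, susceptible against control listed 3 positions, at 166505112, 166584812 and 166650292, and all 3 were Down, unlike most at Mid1. The last of these lies at the very edge of the chromosome, which ends at 166650200 in the ACF1 lists. Resilient against control listed 1, Down, at 166584812. In RefSeq on GRCm38 the next genes past Mid1 are Erdr1 and Asmt, which encodes the last enzyme of melatonin synthesis. Neither was named in any H3 table.

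ACF1 segments began inside the gene and ended well past it. The files divide each chromosome into the states E1 and E2, and which of them stands for binding is not stated; the minority state E2 is called a segment. In controls the segment ran from 166419801 to 166447200 and was 27400 bp wide. In susceptible and resilient mice it ran from 166426801 to 166447200 in both lists and was 20400 bp wide. The end was thus the same in all 3 lists, 18471 bp past the gene end, while the control segment began 7000 bp nearer the gene start. It covered 8929 bp of Mid1 (8.03%) in controls and 1929 bp (1.74%) in each of the other groups. The median segment was 1000 bp in the control and susceptible lists and 1200 bp in the resilient list. By width the Mid1 segment ranked 17 of 749, 42 of 1133 and 31 of 716 in controls, susceptible and resilient mice. Among segments of chromosome X it ranked 5 of 93, 13 of 112 and 12 of 101.

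Few genes carried a segment at all. Of the genes named in the H3 tables, 1.89% held one in the control list, 2.55% in the susceptible list and 1.47% in the resilient list, and 0.921% did so in every list, as Mid1 did. The nearest segment before the gene lay 6.77 Mb away in controls, 1.06 Mb in susceptible and 4.07 Mb in resilient mice. Past it, a segment ended at 166506400 that was 1200 bp wide in controls and 2000 bp wide in susceptible mice. Susceptible mice alone had one of 6000 bp from 166579001, and all lists had one of 800 bp from 166649401 to their end of the chromosome.

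The edges of these segments divide the gene and its flank into stretches that differed in their H3 rows; this division was chosen after seeing the data. The counts of every stretch take all rows, whatever gene they name. From the first listed position to the control segment (11.4 kb, outside all segments), susceptible against control listed 9 Up of 9, resilient against control 3 Down of 3 and resilient against susceptible 14 Down of 14. Rows of G530011O06Rik made up 1 of these 9 and 5 of these 14. In the 7.0 kb covered in controls alone, the counts were 4 Up and 2 Down, 5 Down of 5, and 13 Down of 13. The last table reached its highest density there, at 1.86 positions per kb against 1.22 before it and 1.56 in the next stretch, on 3 positions. In the 1.9 kb of the gene under the segment of all lists, they were 1 Up, 0, and 3 Down of 3. In the 18.5 kb past the gene end under that segment, they were 4 Up and 2 Down, 11 Down of 11, and 12 Down of 12. Of the 4 Down positions of susceptible against control in these stretches, 2 thus lay where controls alone had a segment. The other 2 lay under the segment of all lists. Up positions still outnumbered Down positions in each stretch under a segment, and the 9 positions before the control segment were all Up.

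**Figure D3:**
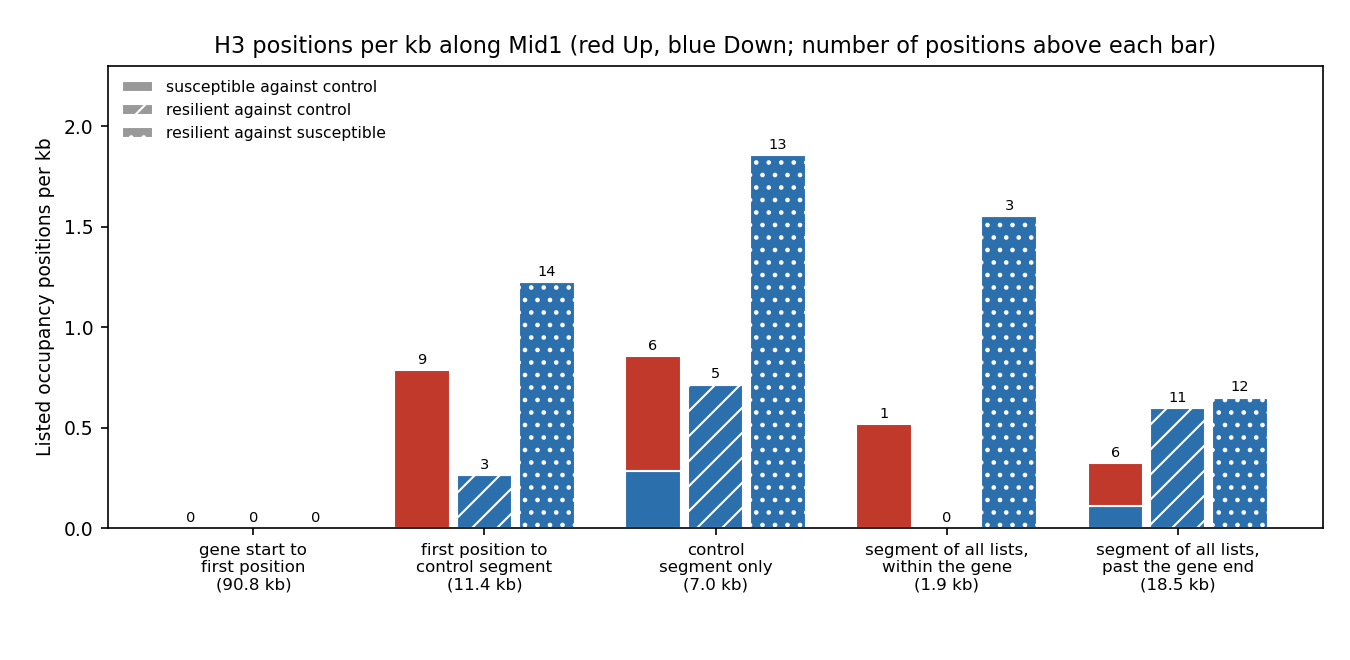
Listed H3 occupancy positions per kb in 5 consecutive stretches of Mid1 and its 3′ flank, for the 3 comparisons (plain, striped and dotted bars), with Up in red, Down in blue and the number of positions above each bar. The first 90.8 kb held 0 positions. Resilient against susceptible reached 1.86 per kb where only the control list had a segment, and 1.56 per kb in the next stretch, on 3 positions.

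Taking the rows that name Mid1 alone, 8 of 16 positions lay in a segment of some list in susceptible against control, 5 of 8 in resilient against control and 18 of 27 in resilient against susceptible. All of these were in the control segment, which must be so because it contains the segments of the other lists. The susceptible segment held 2, 0 and 5 of these positions, and the resilient segment, with the same bounds, the same numbers. From the first listed position to the gene end, 11.4 kb lay outside all segments. Another 7.0 kb lay in the control segment alone and 1.9 kb in the segment of all lists. The share of all listed positions that lie in a segment is not given here, so no excess at Mid1 is read from these counts.

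The whole stretch from the first position to the segment end, 38.8 kb or 0.0233% of chromosome X, held a large part of that chromosome's rows. It took 22 of 83 in susceptible against control (26.5%), 19 of 74 in resilient against control (25.7%) and 42 of 101 in resilient against susceptible (41.6%). This came to 0.57, 0.49 and 1.08 positions per kb, where the tables without chromosome 1 held 6.76, 6.56 and 6.09 per Mb. In windows of 20 kb, the one from 166420000 held 24 positions in resilient against susceptible and the one from 166400000 held 15, the highest counts of that table. The window from 166420000 was also the fullest in resilient against control, with 14, and with 11 it shared first place outside chromosome 1 in susceptible against control with 2 windows at Sfi1 on chromosome 11. A window of chromosome Y from 2860000 came next in resilient against susceptible, with 11 positions, 7 Down and 4 Up. Windows at Sfi1 from 3060000 and 3080000 followed there with 10 positions each, all Down. In resilient against control, a window of chromosome 17 from 39980000 came next with 9, all Down. Windows at Sfi1 from 3040000 and 3060000 then held 8 each, all Down. Full windows with Down positions only were thus not particular to Mid1.

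Within a table the listed positions were spaced unevenly. Gaps between neighbours ran from 150 to 4230 bp in susceptible against control (median 1000 bp), from 180 to 8270 bp in resilient against control (median 1250 bp) and from 110 to 5450 bp in resilient against susceptible (median 490 bp). Over all 3 tables the 46 distinct occupancy positions had a median gap of 200 bp, with 17 of 45 gaps under 150 bp. Neighbouring rows of different tables at such gaps need not be different nucleosomes. The positions are given in steps of 10 bp.

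Nucleosome shifts at Mid1 were mixed in sign. They were 4 of 3942 in susceptible against control, 1 of 612 in resilient against control and 6 of 561 in resilient against susceptible. Of the shifts on chromosome X alone, they were 4 of 15, 1 of 9 and 6 of 12. For susceptible against control, the authors' deposited table gave Mid1 shifts of 60 bp at 166409052, -70 bp at 166411612, -80 bp at 166412782 and -60 bp at 166428092. For resilient against control, the authors' deposited table gave 1 shift, of 80 bp at 166412052. For resilient against susceptible, the authors' deposited table gave 6, which were 70 bp at 166408352, 60 bp at 166412702, -70 bp at 166417212, -70 bp at 166418292, -80 bp at 166419282 and -70 bp at 166422002. Positive shifts were thus 1 of 4, 1 of 1 and 2 of 6, where 51.6%, 51.0% and 52.4% of all shifts in these tables were above 0. In the last table the 2 positive shifts lay before the 4 negative ones along the gene. Both 166412782 and 166428092 were also Up positions of susceptible against control, and 166422002, shifted in resilient against susceptible, was Up in susceptible against control.

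Genes of like direction were sought among the 125 genes with at least 3 occupancy positions in each table, by the distance between their 3 shares of Up positions and those of Mid1. Sfi1, a centrosomal protein gene of chromosome 11, was nearest, with 24 Up of 35, 1 Up of 23 and 0 Up of 26 in the order of the tables above. Stk32b, which encodes a serine/threonine kinase, followed with 5 Up of 8, 0 of 5 and 0 of 5. Gm13152, a predicted gene of chromosome 4, had 11 Up of 18, 3 of 29 and 3 of 19. The potassium channel gene Kcnh8 had 3 Up of 4, 0 of 3 and 1 of 3, and the muscarinic receptor gene Chrm3 had 6 Up of 9, 1 of 3 and 0 of 5. Of the 125, 33 had a majority of Up positions in susceptible against control. Resilient against control held 0 Up in 15 of them and resilient against susceptible in 10. Only Mid1 and Stk32b combined all of these. Mid1 was selected on these directions and the tables share groups, so the rarity of this combination is no separate result.

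These genes differed from Mid1 in how their positions were spread. The positions of Sfi1 spanned 63.2 kb, those of Stk32b 214.4 kb, of Gm13152 288.3 kb, of Kcnh8 222.4 kb and of Chrm3 399.8 kb, against 19.3 kb at Mid1. The genes themselves were 61.6, 270.3, 337.6, 302.5 and 484.2 kb long in that order, against 111.2 kb for Mid1. Longer genes can hold wider spans. The Mid1 span counts only rows that name it, while unnamed positions continued past its end. Sfi1 was covered along most of its 61.6 kb by ACF1 segments, over 56615 bp, 61615 bp and 45466 bp in the control, susceptible and resilient lists. Gm13152 held 8, 9 and 9 segments in the same order. Stk32b, Kcnh8 and Chrm3 held 0 segments in any list. Mid1, Sfi1 and Gm13152 thus held segments in every list. Any link between segments and H3 directions was not tested.

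**Figure D4:**
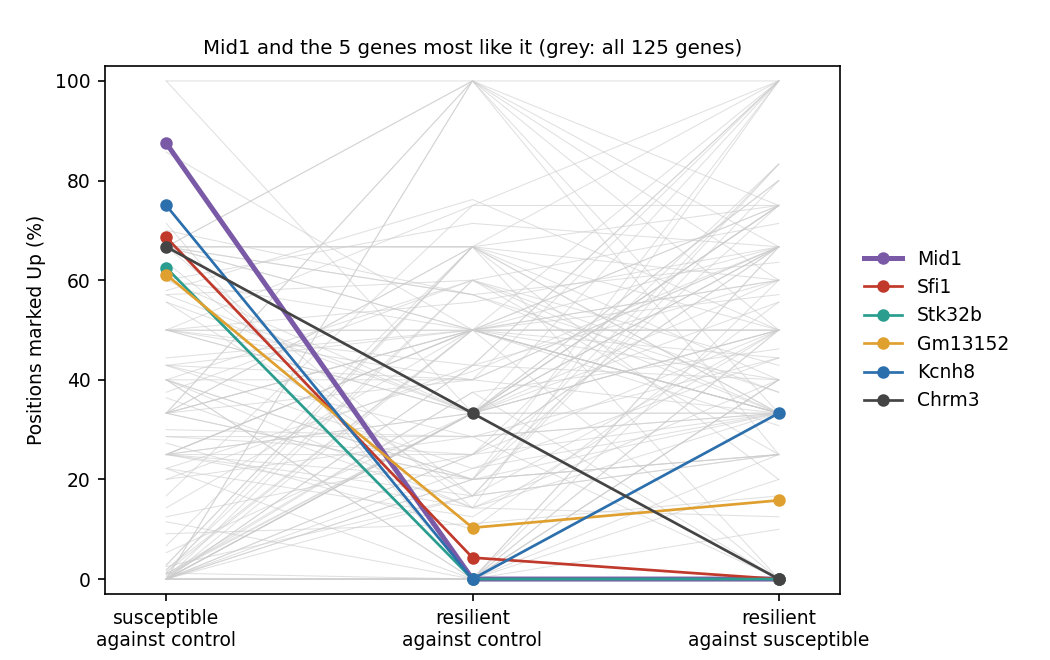
Percentage of occupancy positions marked Up in each of the 3 comparisons for Mid1 (thick purple line), the 5 genes nearest to it in these shares (coloured lines) and all 125 genes with at least 3 positions per table (grey lines). Mid1 and Stk32b stand at 0% in both tables that name resilient mice first, and Mid1 starts highest of the coloured lines at 87.5%.

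Genes that work with MID1 were named in the H3 tables at 58.3% (7 of 12 partners and targets), where 30.4% of 21900 RefSeq protein-coding genes were named. A share above 30.4% was not particular to them. Of the other short lists described below, microtubule genes were named at 55.0%, ACF and ISWI genes at 45.5% and COS-box relatives at 40.0%. Distal genes of chromosome X were named at 5.3%. The named partners and targets held a median of 2 occupancy positions over the 3 tables, the same as all genes with a position, and none held a segment. Outside chromosome 1 they had 2 Up and 2 Down positions in susceptible against control and 1 Up and 4 Down in resilient against control. In resilient against susceptible, 2 were Down. Mtor, the kinase of growth signalling, had 1 position per table, Up, Down and Down in the order above. Ppp2r1a, the scaffold subunit of protein phosphatase 2A, held 1 Up position in the first table and 1 Down position in the last. Gli3 and Pax6 went the other way in the first table, with 1 Down position each. In resilient against control, Gli3 held 1 Down position and Pax6 1 Up position. Stk36, a kinase of hedgehog signalling on chromosome 1, held 7 Down positions in susceptible against control and 1 Up in resilient against susceptible. Since that chromosome held most Down positions of the first table, these 7 do not set Stk36 apart.

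Of 10 relatives of MID1 with the microtubule-binding COS box, 4 were named, with a median of 2 positions. Fsd1l held 2 Up positions in resilient against control and 2 Up in resilient against susceptible, and Trim36, Trim54 and Trim55 held 2 positions each. Of 20 other microtubule genes, 11 were named, with a median of 2 positions. Clasp1, which stabilises microtubule ends, had 30 Down of 32 positions in susceptible against control, Map2, a dendritic microtubule protein gene, 15 Down of 16, and Kif1a, a motor for synaptic vesicle precursors, 11 Down of 11, all on chromosome 1. Outside it, the list had 1 Up and 1 Down in that table, 4 Up and 3 Down in resilient against control, and 4 Up and 1 Down in resilient against susceptible, with 2 of the Up positions at the doublecortin-like kinase gene Dclk1. Mtus2 held a segment of 600 bp in the susceptible and the resilient list.

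Few genes of chromosome X were named at all, 16 of 966 protein-coding genes in RefSeq (1.7%), Mid1 among them. Of 19 listed genes of its distal part, Arhgap6 was named, with 1 Down position in resilient against susceptible and 800 bp of segment in susceptible mice. Of 11 genes of ACF and related ISWI remodellers, 5 were named, with a median of 2 positions. Baz1a, which encodes ACF1 itself, held 1 Down position in susceptible against control and 1 Up and 1 Down in resilient against control. Baz2b held 1 Up and 1 Down in susceptible against control, 1 Up in resilient against susceptible and 800 bp of segment in controls.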

How the data were processed

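Files of 6 of the 15 samples were used, for ACF1 (sheared chromatin) and H3 (micrococcal nuclease); SNF2H and inputs are not analysed here. The submitters' processing notes name CASAVA 1.8.2 and mm9, while for the aligner, the calling programs and any pooling of replicates the answer is not given in the sources used here. The authors deposited state labels in steps of 200 bp for ACF1 and, for H3, directions of selected occupancy changes or signed shifts in bp. These carry no size, p-value or read count, so depth is unknown. Pairs of groups were read from the names of the deposited tables.

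Rows were counted by the gene they name and segments by at least 1 bp of overlap, in 1-based positions with bounds as given; clusters allowed gaps of up to 1000 bp. The code was tested on simulated data. Members and gene lists were chosen with earlier results of these data known. The genes named were Mid1, the 5 nearest in shares of Up positions, those with rows within 500 kb, and list genes with at least 3 positions in all or a segment. Ppp2r1a, Gli3, Pax6, Trim36, Trim54, Trim55, Erdr1 and Asmt were added after their values were seen. No sequence of the region was read, since no mm9 genome was used. Versions were matplotlib 3.10.9, scipy 1.17.1, pandas 2.3.3, numpy 2.4.6 and Python 3.11.15.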

Additional observations from a re-analysis of the deposited data

How the results depend on the processing

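Reading Up as higher in the second-named group turns every direction at Mid1: 12.5% Up in susceptible against control and 100% in each of the other tables. Without positions within 1000 bp of a segment, susceptible against control went from 87.5% to 100% Up (7 of 7). The other ways of counting the Mid1 rows, by the bounds, by bounds extended by 50 kb (81.8%, 0% and 0% Up) or with positions under 150 bp apart merged, left each table on the same side of 50%. The share of Up on chromosome X without Mid1 was 58.2% in susceptible against control, on the other side of 50% from the whole table, and 57.4% without the whole stretch, a setting added after seeing the data. With gaps of up to 5000 bp, the clusters numbered 1, 2 and 2 in place of 8, 7 and 5, and with gaps of up to 500 bp resilient against susceptible had 14. No segment lay wholly within the gene, which would leave 0 bp covered in each list. Within 100 bp, susceptible against control shared 7 positions with resilient against susceptible (3 at exact positions), and the tables that name resilient mice first shared 4 (0 exact). No paired analysis was possible because each group had 1 sample per target. A stricter threshold could not be tried, since the files hold no score.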
